A study of Mus musculus with 30 samples.

Results

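The mRNA levels of 10 transcription factor genes of the AP-1, EGR, MYC and KLF families were followed in AML12 cells, a mouse hepatocyte line. The genes Fos, Fosl1, Fosl2, Jun, Junb, Jund, Egr1, Myc, Klf6 and Klf10 were taken by symbol from the 49089 Ensembl identifiers of the count tables, and all 10 were found. Of these, 9 were among the 11368 genes that passed a filter on low counts and were tested, and Fos did not pass. RNA-seq was performed in 30 samples of 8 groups. Control cells, cells with knockdown of FoxK1 (FoxK1 KD) or FoxK2 (FoxK2 KD) and double-knockdown cells (DKD) were each measured basal and with 100 nM insulin for 6 h. The basal samples are labelled with no treatment at 0 min, while the protocol describes a mock treatment, so whether they were matched in time to the insulin samples is not settled by the sources used here. All cells were serum starved overnight beforehand. FoxK1 and FoxK2 are forkhead transcription factors, and per the study's methods the knockdowns were made by transfection of siRNAs, so the targeted transcripts were reduced and not abolished. The study describes its Control cells as treated with an siRNA abbreviated NS. Each group had 4 samples, except Control and DKD with insulin, which had 3 each. The labels do not say whether replicates were separate cultures, so the p-values measure the spread between these samples, which may be technical.

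AP-1 is a dimer of a JUN family protein with a FOS family or JUN family protein, and it binds the TPA response element of many growth and stress genes. FOS and EGR1 are the classical immediate-early genes, whose transcription starts within minutes of a growth factor through the ERK pathway and serum response factor and then declines. MYC, as a dimer with MAX, drives genes of ribosome and nucleotide synthesis, and KLF6 and KLF10 are zinc finger factors of the GC-box binding family. In hepatocytes these factors are known for their part in liver regeneration.

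Library totals ranged from 2141460 to 5668270 counts, with a median of 3662235.5, and values are given as CPM, the counts of a gene per 1000000 counts of its library, scaled by the TMM method. Changes were tested by edgeR's quasi-likelihood test in 1 model of the 8 groups and called at a Benjamini-Hochberg adjusted p below 0.05 over all 11368 genes, and the SE is that of the log2 fold change. Foxk1 fell in FoxK1 KD basal cells from a Control mean of 81.4 CPM to 36.8 CPM and in DKD basal cells to 46.5 CPM. Foxk2 fell from 140 CPM to 47.3 CPM in FoxK2 KD basal cells and 50.2 CPM in DKD basal cells. Foxk2 was also called lower in FoxK1 KD basal cells, at 117 CPM (adjusted p = 0.0487). With insulin, Foxk1 itself fell in Control cells, from 81.4 to 53.0 CPM (adjusted p = 0.00037). The hepatocyte markers Hnf4a (89.6 to 152 CPM), Krt8 and Krt18 were present in every library. Of the plasma protein genes, Ttr (12.9 to 53.0 CPM), Serpina1a (9.48 to 31.1 CPM) and Trf (4.95 to 24.6 CPM) were also present in every library. Alb ranged from 2.5 to 65.2 CPM and Afp from 1.41 to 7.38 CPM, and Apoa1 and Apoe (at most 12 counts each) were near 0. None of the 4 leukocyte, 3 endothelial and 5 fibroblast or stellate markers passed the filter, and Adgre1 and Lrat were at 0 in all libraries. Of the 4 bile duct markers, Krt19 (323 to 753 CPM), Sox9 and Krt7 were present and Epcam was at 0. Some genes also set whole groups apart from all other groups, and the labels name no batch. In the 12 basal Control, FoxK1 KD and FoxK2 KD libraries, 52 genes, 10 of them pseudogenes, were lower and 83 higher than in all 18 other libraries, which include DKD basal, and 0 of the 10 factors were among them. Control basal replicate 1 lay at 22 on the second principal component, against -9.8 to -7.5 for the other Control basal libraries, and near DKD basal replicates 1 to 3 (20.2 to 27.1). All DKD basal libraries, at 16.4 to 27.1, also stood apart there from the DKD insulin libraries, at -3.2 to 5.6. The insulin comparisons in Control, FoxK1 KD and FoxK2 KD cells and DKD against the others at basal cross the first of these splits. So do the differences in insulin effect, which use these comparisons. The part of these splits in the results was not tested. In bulk RNA, fewer cells that express a gene and less RNA per cell cannot be told apart.

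Levels of different genes were compared as CPM per kilobase of exon sequence. In Control basal cells Junb was highest at 63.9 ± 13.5 CPM per kb (SD, n = 4), followed by Klf6 at 47.9 ± 8.13 CPM per kb, and the samples of these genes overlapped. Myc followed at 24.6 ± 1.13 CPM per kb, below every Klf6 sample. Fosl2 at 18.4, Jun at 17.4, Klf10 at 17.0 and Jund at 15.9 CPM per kb each overlapped with the next. Fosl1 at 4.88 ± 1.31 and Egr1 at 4.75 ± 1.30 CPM per kb were not separated. Fos was lowest at 0.185 ± 0.0915 CPM per kb, which was 1 to 4 counts per library. Junb ranked first and Klf6 next in 7 of the 8 groups. In FoxK2 KD basal cells Klf6 stood at 50.7 and Junb at 48.7 CPM per kb, with overlapping samples. With insulin Fosl1 stood above Egr1 in all 4 genotypes, at 9.72 against 2.21 CPM per kb in Control cells, with no overlap between their samples. Myc, next below Junb and Klf6 in all 4 basal groups, then stood among Klf10, Jun and Fosl2, at 16.0 CPM per kb in Control cells.

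**Figure D1:**
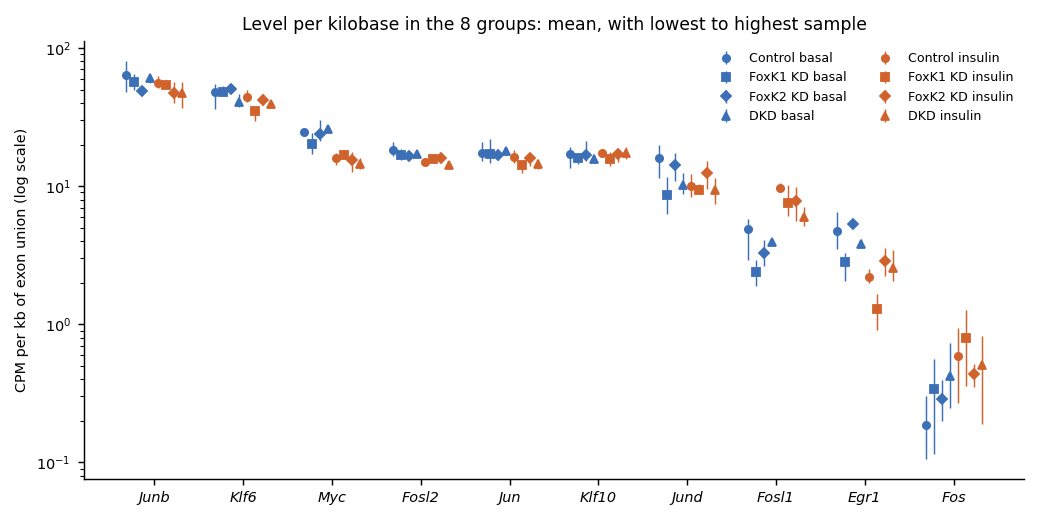
Mean CPM per kilobase of exon union (log axis) of the 10 factors in the 8 groups, with bars from the lowest to the highest sample. Genes are ordered by Control basal level, from Junb at 63.9 to Fos at 0.185 CPM per kb, and within each genotype the insulin level (orange) lies above the basal level (blue) for Fosl1 and below it for Egr1.

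After 6 h of insulin, Fosl1 rose while Egr1 and Myc fell in Control cells. Of the 9 factors tested there, 1 rose and 4 fell (Fosl2, Jund, Egr1 and Myc), where 25.4% of all genes tested were called, 12.4% higher and 13.1% lower. In FoxK1 KD cells 1 rose and 2 fell, where 31.6% of all genes were called (16.2% higher, 15.4% lower). In FoxK2 KD cells 1 rose and 3 fell, where 28.1% were called (14.4% higher, 13.7% lower). In DKD cells 0 rose and 2 fell, where 16.3% were called (8.31% higher, 7.99% lower). At the study's thresholds, an adjusted p below 0.25 and a change over 1.5-fold, 3 rose and 7 fell over the 4 genotypes, where 12%, 12.9%, 10.7% and 8.49% of all genes passed. The median log2 fold change of the 9 factors was -0.19 in Control cells, beside -0.011 over all genes, and -0.10 with FoxK1 KD, -0.07 with FoxK2 KD and -0.26 with DKD. Jun, Junb and Klf10 were called in none of the 17 comparisons made. Summed markers moved with insulin without overlap in the knockdowns. Most of the hepatocyte sum came from Krt8 and Krt18 (554 and 1196 CPM in Control basal cells), so it mainly follows these genes. With insulin, mean Krt8 went from 512 to 886 CPM in FoxK1 KD cells and mean Krt18 from 1388 to 919 CPM in DKD cells. With FoxK1 KD the hepatocyte sum was 1675 to 1818 CPM at basal and 2018 to 2344 CPM with insulin and the bile duct sum 534 to 610 and 636 to 756 CPM. In FoxK2 KD cells the bile duct sum was 622 to 723 and 725 to 869 CPM, and in DKD cells the hepatocyte sum was 2306 to 2403 and 1811 to 2188 CPM, while both sums overlapped in Control cells. Their part in the results was not tested.

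**Figure D2:**
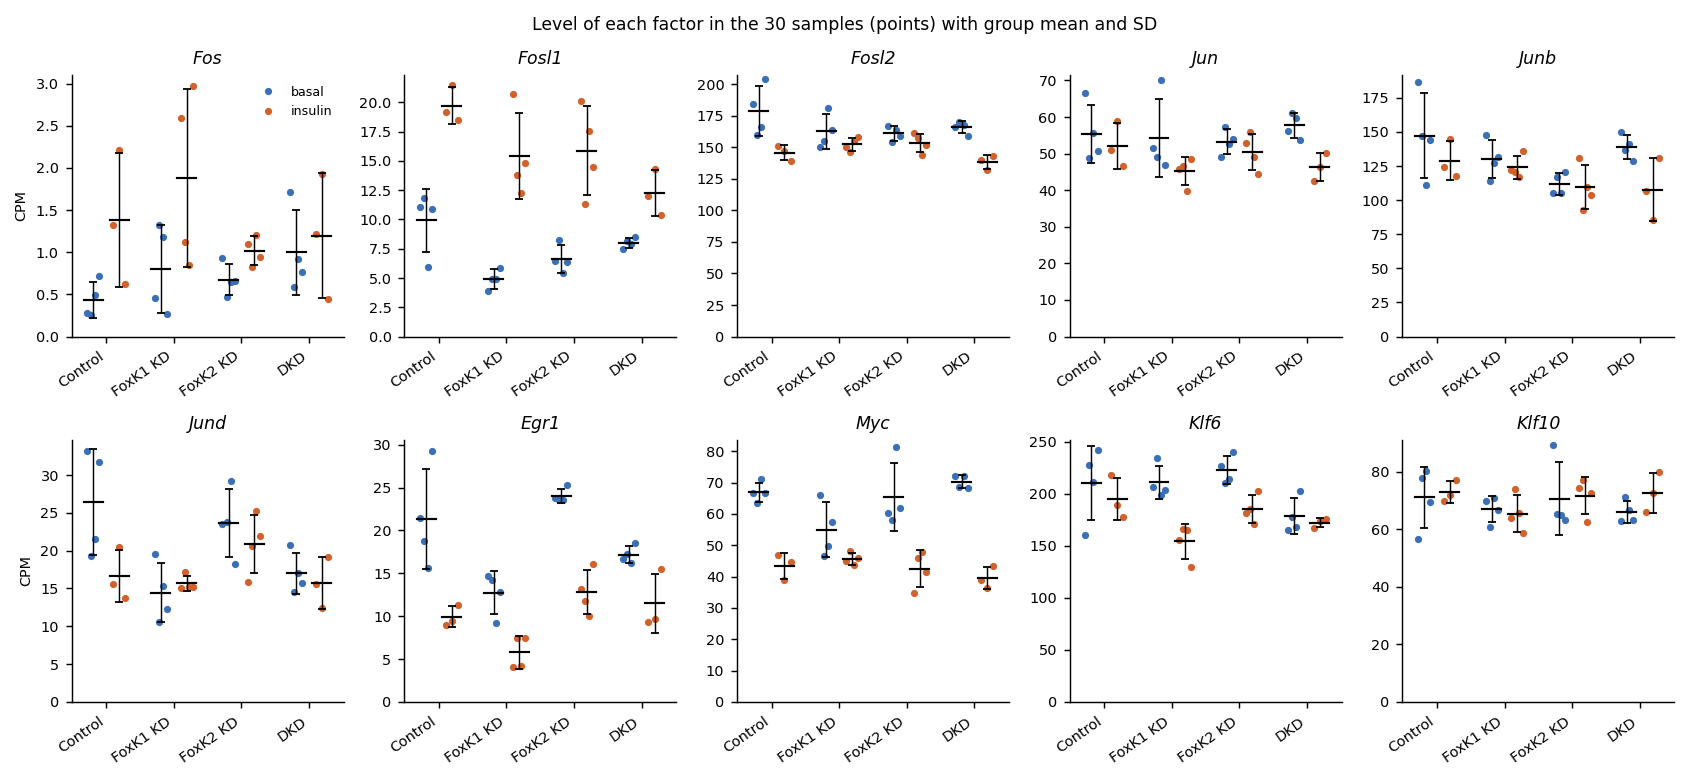
CPM (linear axes from 0) of the 10 factors in the 30 samples by genotype, basal in blue and insulin in orange, with group mean and SD in black. Every insulin sample of Fosl1 lies above, and every insulin sample of Egr1 and of Myc in Control, FoxK2 KD and DKD cells lies below, the basal samples of the same genotype.

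Fosl1 encodes FRA-1, a FOS family partner in AP-1 that lacks a strong activation domain (chromosome 19, 5447547 to 5455946, plus strand, GRCm38). In Control cells it measured 11.1, 11.8, 5.95 and 10.9 CPM at basal and 19.2, 21.5 and 18.5 CPM with insulin. In FoxK1 KD cells it measured 3.85, 4.95, 4.94 and 5.89 CPM at basal and 20.7, 13.8, 12.3 and 14.8 CPM with insulin. The basal and insulin samples did not overlap in either genotype, and Control basal replicate 3 was the low one among Control basal samples. In FoxK2 KD cells the values were 6.48, 8.24, 5.40 and 6.37 CPM at basal and 20.1, 11.3, 17.6 and 14.5 CPM with insulin. In DKD cells they were 7.47, 8.14, 7.87 and 8.47 CPM at basal and 12, 14.3 and 10.4 CPM with insulin. Again the groups did not overlap. The log2 fold change was 0.99 (SE 0.19, adjusted p = 0.00023) in Control, 1.66 (SE 0.22, adjusted p = 7.2e-07) in FoxK1 KD and 1.27 (SE 0.20, adjusted p = 8e-06) in FoxK2 KD cells, or 1.98-, 3.16- and 2.41-fold. In DKD cells it was 0.58 (SE 0.22, adjusted p = 0.0732) and missed the threshold. DKD basal libraries were outside the split described above, but they stood apart from DKD insulin libraries on the second principal component. The 3 calls held without each library in turn, and without Control basal replicate 1 the Control value was 1.04.

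Fosl2 encodes FRA-2, another FOS family partner (chromosome 5, 32135801 to 32157842). It measured 184, 160, 166 and 204 CPM in Control basal and 151, 147 and 139 CPM in Control insulin samples. In DKD cells it measured 166, 170, 168 and 159 CPM at basal and 140, 132 and 143 CPM with insulin. Every insulin sample was below every basal sample in both genotypes. Fosl2 fell by 0.30 on the log2 scale in Control cells (SE 0.08, adjusted p = 0.00569) and by 0.26 in DKD cells (SE 0.08, adjusted p = 0.0253). The DKD call was lost without DKD basal replicate 2 (-0.25, adjusted p = 0.057), DKD insulin replicate 1 (-0.27, 0.0619) or DKD insulin replicate 2 (-0.23, 0.109). It was also lost without the filter (adjusted p = 0.143), and the Control call with only the compared groups in the model (0.147). In the single knockdowns the log2 fold change was -0.10 and -0.07, with overlapping samples.

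Fos, whose product is the prototype AP-1 partner of JUN (chromosome 12, 85473890 to 85477273), had 1 to 8 counts in every library. Control basal samples held 1, 1, 2 and 4 counts and Control insulin samples 5, 7 and 2 counts, which is 0.436 ± 0.215 CPM (SD, n = 4) against 1.39 ± 0.794 CPM (n = 3). These groups overlapped. In a fit of 23784 genes without the filter, the log2 fold change of Fos with insulin was 1.49 in Control (SE 0.68, adjusted p = 0.168), 1.23 in FoxK1 KD (SE 0.58, 0.17), 0.59 in FoxK2 KD (SE 0.62, 0.638) and 0.12 in DKD cells (SE 0.65, 1). None was called, and in Control and FoxK1 KD cells the unadjusted p was 0.0279 and 0.0346, with 95% intervals of 0.16 to 2.82 and 0.09 to 2.36.

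Among the JUN family, Jund encodes the member that is known as broadly expressed in resting cells (chromosome 8, 70698949 to 70700616). It measured 33.2, 19.3, 21.6 and 31.8 CPM in Control basal and 15.6, 20.5 and 13.8 CPM in Control insulin samples. Control basal replicates 1 and 4 were the high ones, and 1 insulin sample lay above the lowest basal sample. Jund fell by 0.68 on the log2 scale (SE 0.20, adjusted p = 0.0129). The call was lost without Control basal replicate 4 (-0.56, adjusted p = 0.0558), Control insulin replicate 1 (-0.63, 0.0548) or Control insulin replicate 3 (-0.58, 0.0727), with only the compared groups (0.0836), and after taking out a trend on GC content and length (-0.43, 0.0561). With FoxK1 KD, FoxK2 KD and DKD the log2 fold change was 0.10, -0.19 and -0.08, with standard errors of 0.18 to 0.22 and overlapping samples.

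Jun encodes c-JUN, the founding AP-1 subunit (chromosome 4, 95049034 to 95052222). It measured 66.6, 48.8, 55.6 and 50.7 CPM in Control basal and 50.9, 58.8 and 46.5 CPM in Control insulin samples, with a log2 fold change of -0.08 (95% interval -0.32 to 0.16). In DKD cells it was 56.3, 61.1, 59.7 and 53.7 CPM at basal and 42.4, 46.4 and 50.2 CPM with insulin. The DKD groups did not overlap, but at -0.31 (SE 0.13, adjusted p = 0.0874) the difference missed the threshold. In FoxK1 KD cells it was -0.27 (adjusted p = 0.081), and -0.34 (adjusted p = 0.0352) without FoxK1 KD basal replicate 4.

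Junb encodes an AP-1 subunit that often restrains c-JUN, and its gene ranked first per kilobase in Control basal cells (chromosome 8, 84974484 to 84978718, minus strand). Of the 6 factors with an entry in the RefSeq promoter table used (Fos, Fosl2, Jun, Junb, Jund and Klf6; GRCm38.p6), Junb alone held the forkhead core GTAAACA on either strand in the 250 bases before its start, and 3.17% of all 32851 promoters did. It is shown because forkhead factors were knocked down, with the match, on the minus strand of the run and 135 to 129 bases before the start, in capitals (chr8:84978749-84978998, minus strand).
Junb promoter: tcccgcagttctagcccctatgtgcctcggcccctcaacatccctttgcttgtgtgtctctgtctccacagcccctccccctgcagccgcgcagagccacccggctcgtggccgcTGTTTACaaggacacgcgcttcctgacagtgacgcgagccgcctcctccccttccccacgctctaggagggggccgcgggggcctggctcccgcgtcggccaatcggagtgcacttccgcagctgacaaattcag
Junb measured 187, 147, 111 and 144 CPM in Control basal and 124, 145 and 118 CPM in Control insulin samples. Among knockdowns at basal it measured 148, 114, 127 and 132 CPM in FoxK1 KD, 105, 117, 105 and 121 CPM in FoxK2 KD and 150, 137, 141 and 129 CPM in DKD samples. The Control basal samples spanned 111 to 187 CPM and overlapped each of the other groups. The log2 fold change in FoxK2 KD against Control at basal was -0.39 (SE 0.12, adjusted p = 0.15), and -0.50 (adjusted p = 0.0279) without Control basal replicate 3. In DKD cells insulin gave -0.36 (SE 0.13, adjusted p = 0.0636), and -0.52 (adjusted p = 0.0155) without DKD insulin replicate 3. A motif match is a description of the letters and was not tested for binding.

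EGR1 is a zinc finger factor that is induced within minutes of growth factors (gene on chromosome 18). Egr1 measured 21.5, 18.8, 15.6 and 29.3 CPM in Control basal and 8.97, 9.48 and 11.3 CPM in Control insulin samples. In FoxK1 KD cells it measured 14.7, 14.2, 9.17 and 12.8 CPM at basal and 4.06, 7.47, 4.23 and 7.42 CPM with insulin. Every insulin sample was below every basal sample of its genotype. In FoxK2 KD cells the values were 23.8, 23.5, 23.6 and 25.3 CPM at basal and 13.2, 11.8, 10 and 16.1 CPM with insulin. In DKD cells they were 16.7, 17.2, 16.2 and 18.5 CPM at basal and 9.27, 9.67 and 15.5 CPM with insulin. These groups did not overlap either, although DKD insulin replicate 3 came within 1 CPM of the basal samples. Egr1 fell by 1.13 on the log2 scale in Control (SE 0.21, adjusted p = 0.00012), by 1.11 in FoxK1 KD (SE 0.24, adjusted p = 0.00065) and by 0.91 in FoxK2 KD cells (SE 0.18, adjusted p = 0.00021), and these calls held without each library in turn. In DKD cells the log2 fold change was -0.55 (SE 0.21, adjusted p = 0.0704), and -0.86 (adjusted p = 0.016) without DKD insulin replicate 3.

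Myc encodes the MYC oncoprotein (chromosome 15, 61985391 to 61990374). It measured 66.6, 63.5, 71.0 and 66.6 CPM in Control basal and 46.9, 38.9 and 44.6 CPM in Control insulin samples. In DKD cells it measured 72.1, 68.6, 72.2 and 68.3 CPM at basal and 38.8, 36.4 and 43.3 CPM with insulin. The groups did not overlap in either genotype. In FoxK2 KD cells it measured 60.2, 57.9, 81.3 and 62.0 CPM at basal and 34.6, 45.9, 47.9 and 41.6 CPM with insulin. In FoxK1 KD cells it measured 66.1, 46.5, 49.9 and 57.5 CPM at basal and 45.1, 48.2, 43.6 and 46.0 CPM with insulin, and these groups overlapped. Myc fell by 0.62 in Control (SE 0.12, adjusted p = 0.00022), by 0.63 in FoxK2 KD (SE 0.11, adjusted p = 4.8e-05) and by 0.82 in DKD cells (SE 0.12, adjusted p = 1e-05) on the log2 scale. These calls held without each library in turn. The DKD comparison does not cross the split among basal libraries, but DKD basal and insulin libraries stood apart on the second principal component. In FoxK1 KD cells the log2 fold change was -0.27 (SE 0.12, adjusted p = 0.07), and it was called without FoxK1 KD basal replicate 2 (-0.34, adjusted p = 0.032) or replicate 3 (-0.33, 0.042).

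KLF6 is a zinc finger factor known in liver for its response to injury (chromosome 13, 5861482 to 5870394). Its promoter held an E-box, CACGTG, the site that MYC and MAX dimers bind, which 6.02% of all promoters held and none of the other 5 factors searched. The Fosl2 window held the EGR site GCGGGGGCG (2.57% of all promoters), but all of its 250 bases lie within an annotated exon of GENCODE. The Jund window ends at base 70697738, upstream of the GENCODE gene start given above. In the windows as the table places them, 0 of the 6 held the cAMP response element TGACGTCA (1.55%), the TPA response element TGACTCA (4.46%) or a CArG box (1.47%), the site of serum response factor. Other variants of these sites and bases farther from the start were not searched. The Klf6 promoter is shown up to the first annotated exon base, with the E-box, 43 to 38 bases before the RefSeq start, in capitals (chr13:5861239-5861481, plus strand).
Klf6 promoter: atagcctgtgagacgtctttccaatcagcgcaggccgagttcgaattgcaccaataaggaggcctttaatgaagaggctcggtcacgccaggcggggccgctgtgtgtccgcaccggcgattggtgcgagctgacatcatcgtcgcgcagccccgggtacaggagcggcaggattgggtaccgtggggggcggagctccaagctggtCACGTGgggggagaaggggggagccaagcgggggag
Klf6 measured 207, 234, 199 and 204 CPM in FoxK1 KD basal and 156, 166, 165 and 130 CPM in FoxK1 KD insulin samples. In FoxK2 KD cells it measured 227, 210, 214 and 240 CPM at basal and 182, 185, 171 and 203 CPM with insulin. The insulin samples were below all basal samples in both genotypes. In Control cells the values were 160, 228, 211 and 242 CPM at basal and 218, 189 and 178 CPM with insulin, which overlapped. Klf6 fell by 0.45 on the log2 scale in FoxK1 KD (SE 0.10, adjusted p = 0.00072) and by 0.27 in FoxK2 KD cells (SE 0.10, adjusted p = 0.0375), against -0.11 (SE 0.11) in Control and -0.06 (SE 0.11) in DKD cells. The FoxK2 KD call was lost without FoxK2 KD basal replicate 1 (-0.26, adjusted p = 0.0708) or 4 (-0.23, 0.116), or FoxK2 KD insulin replicate 1 (-0.27, 0.0688), 2 (-0.27, 0.0664) or 3 (-0.23, 0.113), and after the GC content and length trend was taken out (-0.20, 0.0582). Klf10, an early target of TGF-β, ranged from 56.7 to 89.5 CPM over all 30 samples (chromosome 15, 38291463 to 38300706). Its insulin log2 fold changes were 0.04 in Control cells, -0.04 in FoxK1 KD, 0.03 in FoxK2 KD and 0.14 for DKD, and their 95% intervals lay within -0.26 and 0.37.

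**Figure D3:**
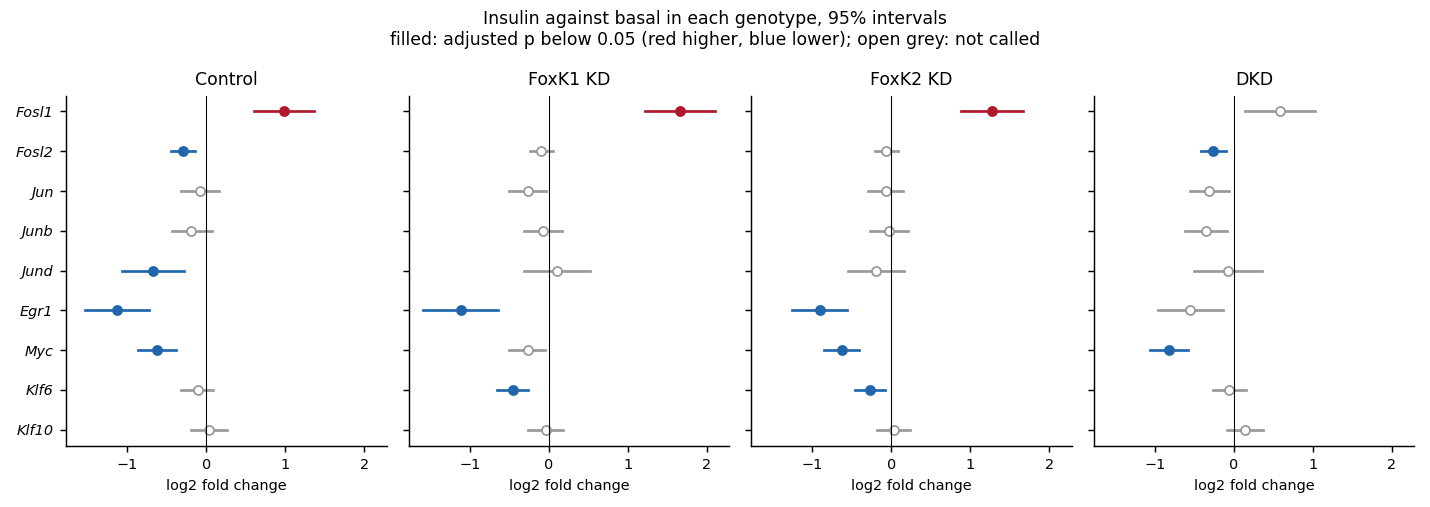
Log2 fold change (insulin against basal) of the 9 tested factors in each genotype, with 95% intervals from the standard errors; filled symbols are called at an adjusted p below 0.05. Fosl1 lies to the right of 0 in all 4 genotypes (0.58 in DKD, open symbol, to 1.66 in FoxK1 KD), and Egr1 and Myc lie to the left.

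Whether a knockdown altered the insulin response was tested by the difference of insulin effects. None of the 27 differences was called by edgeR's quasi-likelihood test (over all genes 0% were called for FoxK1 KD, 0% for FoxK2 KD and 1.54% for DKD), 5 had an unadjusted p below 0.05 (4, 1 and 0, beside 13.4%, 5.5% and 14.6% of all genes), and DESeq2 and limma-voom called 0. For the FoxK1 KD difference DESeq2 gave an adjusted p to 2993 genes and none to 8375. A factor without an adjusted p was counted as not called, so this 0 cannot decide for such factors. For Fosl1 the insulin effect in FoxK1 KD minus that in Control was 0.67 (95% interval 0.09 to 1.26, adjusted p = 0.331), and in DKD minus Control it was -0.41 (-0.99 to 0.18, adjusted p = 0.567). For Jund the FoxK1 KD difference was 0.77 (0.19 to 1.35, adjusted p = 0.275). For Egr1 the DKD difference was 0.57 (-0.02 to 1.16, adjusted p = 0.377), and for Myc the FoxK1 KD difference was 0.35 (0.02 to 0.67, adjusted p = 0.368). So the calls of Fosl1 and Egr1 in Control and the single knockdowns and not in DKD cells, and of Myc not in FoxK1 KD cells, were not shown to differ between genotypes.

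At basal, FoxK1 knockdown lowered 3 of the 9 factors, Fosl1, Jund and Egr1, and raised 0, where 8.09% of all genes were called, 3.39% higher and 4.71% lower. Comparisons of knockdowns with Control at the same state share the Control samples. Mean Fosl1 was 4.91 CPM with FoxK1 KD against 9.91 ± 2.67 CPM (SD, n = 4) without, a log2 fold change of -1.02 (SE 0.22, adjusted p = 0.00366), and every FoxK1 KD sample (3.85 to 5.89 CPM) was below every Control sample. Egr1 fell from 21.3 ± 5.84 to 12.7 CPM (-0.77, SE 0.18, adjusted p = 0.00657), with no overlap between groups. Jund fell from 26.4 ± 7.05 CPM to 14.4 CPM (-0.85, SE 0.19, adjusted p = 0.00358). Its FoxK1 KD samples, 19.5, 10.6, 15.3 and 12.3 CPM, overlapped Control by 1 sample. All 3 calls held without each library in turn, at -0.97, -0.77 and -0.74 for Fosl1, Egr1 and Jund without Control basal replicate 1. With only the compared groups in the model their values were -1.02, -0.76 and -0.85 with adjusted p of 0.0852, 0.13 and 0.0997, and over all genes the calls were then 31 higher and 15 lower of 10801, against 385 and 535 of 11368. Myc stood at 55.0 against 66.9 CPM (-0.28, adjusted p = 0.102), and at -0.38 (adjusted p = 0.0361) without FoxK1 KD basal replicate 1. Of the 3 bile duct markers tested, Krt19 (-0.70) and Sox9 (-0.40) also fell in this comparison, whereas Krt7 was at 0.41 (adjusted p = 0.11), with means of 26.6 CPM in FoxK1 KD and 20.4 CPM in Control cells. The summed level of the 4 bile duct markers was 534 to 610 CPM in FoxK1 KD and 639 to 1073 CPM in Control basal samples. The summed hepatocyte markers, mostly Krt8 and Krt18, overlapped, at 1675 to 1818 and 1497 to 2433 CPM. Their part in the result was not tested.

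FoxK2 knockdown changed 0 of the 9 factors at basal (0.378% of all genes were called). At an unadjusted p below 0.05 there were 3, where 11.2% of all genes passed, Fosl1 (-0.59, adjusted p = 0.235), Fosl2 (-0.15, adjusted p = 0.432) and Junb, and DESeq2 and limma-voom called the same number of factors lower over the 3 basal comparisons as edgeR, 4. In DKD cells Jund alone was called, and fell, where 21.1% of all genes were called, 10.3% higher and 10.8% lower. Jund in DKD basal samples measured 20.7, 14.5, 17.1 and 15.7 CPM, of which 1 lay above the lowest Control sample. The log2 fold change was -0.64 (SE 0.19, adjusted p = 0.0123), and -0.53 (adjusted p = 0.0633) without Control basal replicate 4. Fosl1 in DKD cells was -0.31 (SE 0.21, adjusted p = 0.308) and Egr1 -0.33 (SE 0.18, adjusted p = 0.189) relative to Control. Klf6 was -0.24 (adjusted p = 0.0792), and it was called without Control basal replicate 1 (-0.35, adjusted p = 0.00276) or DKD basal replicate 4 (-0.32, 0.0299). At an adjusted p below 0.25, the study's threshold, 0 were higher and 9 lower over the 3 knockdowns, where 26.6%, 3.59% and 43.6% of all genes passed.

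**Figure D4:**
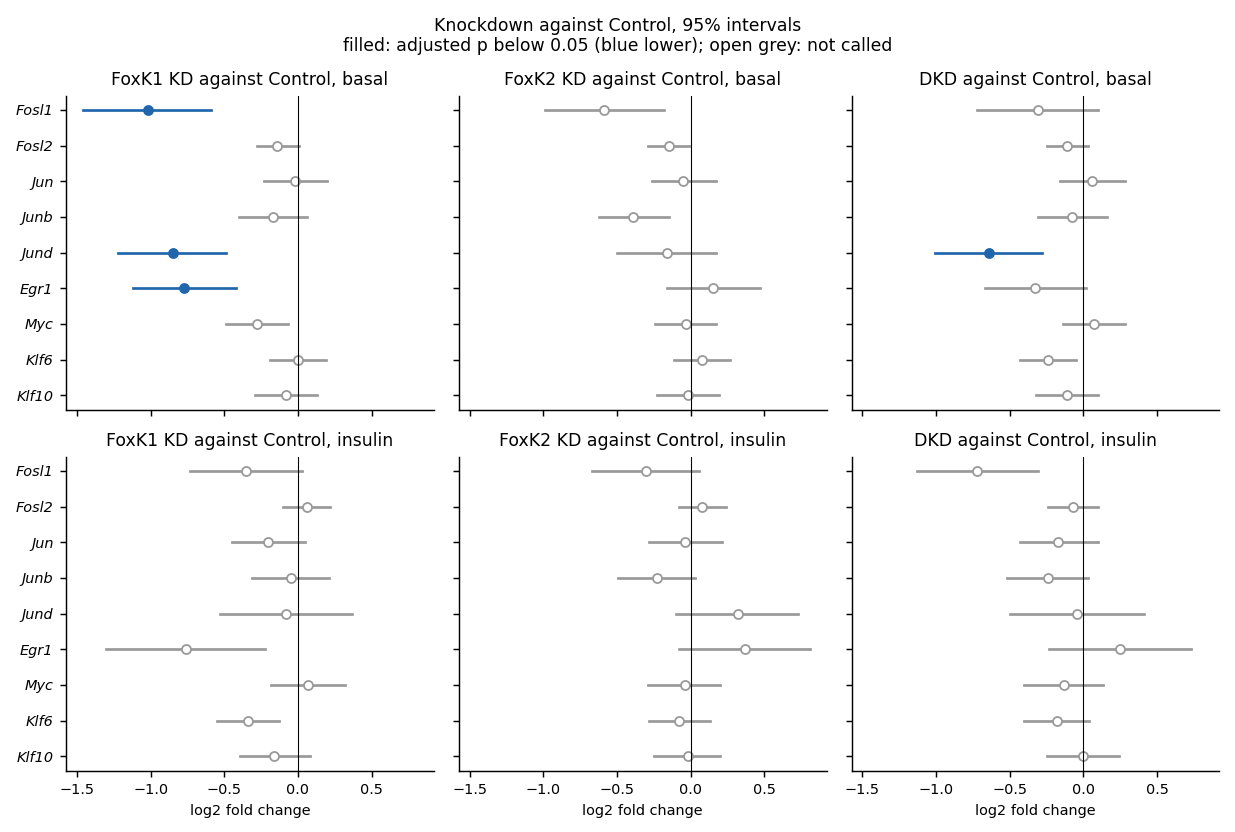
Log2 fold change of the 9 tested factors in each knockdown against Control at basal (top) and with insulin (bottom), with 95% intervals; filled symbols are called at an adjusted p below 0.05. The 4 filled symbols are Fosl1, Jund and Egr1 in FoxK1 KD and Jund in DKD cells, all basal and lower.

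With insulin, 0 of the 9 factors were called in any knockdown against Control by edgeR's quasi-likelihood test, where 3.59%, 0.0264% and 1.21% of all genes were called for FoxK1 KD, FoxK2 KD and DKD. At an unadjusted p below 0.05 there were 2, 0 and 1 factors, beside 17.5%, 6.03% and 12.7% of all genes. At the study's threshold 3 were lower, beside 15.1%, 0.238% and 6.66% of all genes. Over the 3 comparisons limma-voom called 0 and DESeq2 1, Klf6 in FoxK1 KD cells. Klf6 measured 195 CPM in Control and 154 CPM in FoxK1 KD insulin samples, which did not overlap (-0.34, SE 0.11, adjusted p = 0.0703). Egr1 in FoxK1 KD cells was also below every Control insulin sample, at 5.8 against 9.92 CPM (-0.76, SE 0.27, adjusted p = 0.123). Fosl1 in DKD cells measured 12, 14.3 and 10.4 CPM against 19.2, 21.5 and 18.5 CPM in Control, without overlap (-0.72, SE 0.21, adjusted p = 0.0802). After taking out the GC content and length trend this last difference was called (-0.84, adjusted p = 0.0233).

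DKD cells differed from FoxK1 KD cells at basal in 2 factors, both higher in DKD, where 26.3% of all genes were called, 13.8% higher and 12.5% lower. Fosl1 was higher by 0.71 (SE 0.24, adjusted p = 0.0279), with DKD samples of 7.47 to 8.47 CPM above all FoxK1 KD samples. The Fosl1 call was lost without FoxK1 KD basal replicate 1 (0.60, adjusted p = 0.0873) or 2 (0.72, 0.0517), DKD basal replicate 2 (0.70, 0.0579) or 4 (0.67, 0.0636), and under the GC content and length trend (0.37, 0.374). Myc was higher by 0.35 (SE 0.11, adjusted p = 0.0185), also without overlap. The Myc call was lost without FoxK1 KD basal replicate 2 (0.28, adjusted p = 0.0795) or 3 (0.29, 0.069), DKD basal replicate 1 (0.32, 0.0547) and under that trend (0.14, 0.418). Over all genes, calls under the trend were 560 higher and 534 lower, against 1565 and 1426. The summed markers also moved with this comparison without overlap. The 4 bile duct markers summed to 643 to 694 CPM in DKD and 534 to 610 CPM in FoxK1 KD basal samples. The 10 hepatocyte markers summed to 2306 to 2403 against 1675 to 1818 CPM. The hepatocyte sum was again mostly Krt8 and Krt18 (741 and 1388 CPM in DKD, 512 and 1043 CPM in FoxK1 KD basal cells). The part of the markers in the result was not tested. Egr1 stood at 17.1 CPM in DKD against 12.7 CPM in FoxK1 KD cells (0.44, adjusted p = 0.0831). DKD differed from FoxK2 KD cells at basal in Klf6 alone, where 17% of all genes were called, 8.56% higher and 8.44% lower. Klf6 was lower by 0.32 on the log2 scale (SE 0.10, adjusted p = 0.0235). That Klf6 call was lost without FoxK2 KD basal replicate 1 (-0.31, adjusted p = 0.0561) or 4 (-0.28, 0.0772), DKD basal replicate 1 (-0.28, 0.0848) or 3 (-0.29, 0.0644), and under the same trend (-0.16, 0.256), where 440 genes were higher and 471 lower, against 973 and 960. The hepatocyte sum, again mostly Krt8 and Krt18, moved with this comparison too. It was 2306 to 2403 CPM in DKD and 1750 to 2108 CPM in FoxK2 KD basal samples, and its part was not tested. Egr1 was at -0.48 relative to FoxK2 KD cells (adjusted p = 0.0523), with 17.1 against 24.0 CPM and no overlap. With insulin, 0 factors were called between DKD and either single knockdown (0.352% and 0.132% of all genes), with 1 at an unadjusted p below 0.05 in each, beside 9.83% and 5.75% of all genes. At the study's threshold 5 were higher and 4 lower over the 4 comparisons of DKD with a single knockdown, where 50.3% and 40.5% of all genes passed at basal and 2.5% and 0.422% with insulin. Egr1 was the factor in DKD against FoxK1 KD cells, at 11.5 against 5.8 CPM without overlap (1.0, SE 0.26, adjusted p = 0.0802). DESeq2 called it (adjusted p = 0.0492), as did the fit with the replicate number as a block (1.10, adjusted p = 0.0414) and that without the filter (1.02, 0.0098).

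Across the 30 samples, log2-CPM of Egr1 and Myc had a Pearson correlation of 0.64, Fosl1 and Myc of -0.66, and Fosl1 and Egr1 of -0.50. These values share the libraries and the insulin contrast and are given as a description. The genes most like Fosl1 by the same measure were Pfas (0.90), Tk1 (0.90) and Slc1a5 (0.88), which encode an enzyme of purine synthesis, thymidine kinase and a glutamine transporter. Those most like Myc were Hsp90ab1 (0.88), Nfkbia (0.88) and Nop53 (0.87), and those most like Egr1 were Dtx4 (0.86), Gfra1 (0.84) and Mxi1 (0.83), a MAX partner that opposes MYC. For Jund the first was Foxk1 (0.75), followed by H2-K1 and Plp2 (0.73 each). Foxk1 was itself lowered by siRNA in FoxK1 KD and DKD cells and fell with insulin in Control cells. Jund was called lower in FoxK1 KD and DKD cells at basal and with insulin in Control cells, so its correlation with Foxk1 also shares the knockdowns. Foxk1 was also called lower with insulin in FoxK2 KD (-0.41) and DKD cells (-0.42), where Jund was not called (-0.19 and -0.08). The same held for FoxK1 KD against Control with insulin, at -0.78 for Foxk1 and -0.08 for Jund. The first were R3hdm4 for Fosl2 (0.80), Cttn for Jun (0.80), Bcar1 for Junb (0.85), Gpalpp1 for Klf6 (0.87) and Nup98 for Klf10 (0.69).

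Genes around these factors were followed by lists of partners, regulators and targets, with values given as log2 fold changes of genes that were called. Among 22 other immediate-early genes tested, 2 rose and 9 fell with insulin in Control cells, with a median log2 fold change of -0.30, where over all genes 12.4% rose, 13.1% fell and the median was -0.011. Gadd45b (-1.0) and Rhob (-0.82) fell and Plk3 rose (1.46, at most 25 counts in any library). With FoxK1 KD, FoxK2 KD and DKD, 4, 1 and 0 rose and 8, 8 and 6 fell, where 16.2%, 14.4% and 8.31% of all genes rose and 15.4%, 13.7% and 7.99% fell. These shares stand beside the counts of each list that follows. Sgk1, a kinase gene induced by serum and glucocorticoids, fell in all 4 genotypes (-0.82, -0.88, -0.76 and -0.57 in the order Control, FoxK1 KD, FoxK2 KD, DKD), as did Ccn1 (-0.58, -0.41, -0.82 and -0.86), which encodes a matrix protein. Of 8 other AP-1 family genes tested, 1 rose (Jdp2, 0.63) and 2 fell (Maff, -0.55, and Atf7, -0.51) in Control cells, and 1 and 4, 2 and 1, and 0 and 1 rose and fell with FoxK1 KD, FoxK2 KD and DKD. Jdp2, an AP-1 repressor, was the one whose insulin effect differed in DKD from Control (-1.04, SE 0.24, adjusted p = 0.0195). Its mean went from 11.7 to 17.9 CPM with insulin in Control and from 18.4 to 13.6 CPM in DKD cells. This difference crosses the split among basal libraries, whose part was not tested. Atf3, a stress-induced AP-1 partner, was lower in FoxK1 KD basal cells (-0.63, adjusted p = 0.00216) and in DKD cells with insulin (-0.65, adjusted p = 0.0174).

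Of the 2 genes tested in the EGR list, Nab1, a corepressor of EGR proteins, fell in Control (-0.31), FoxK1 KD (-0.47) and FoxK2 KD cells (-0.23). Of 6 genes for serum response factor and its partners, 0 were called in Control and DKD cells. In FoxK1 KD cells 1 rose and 0 fell, and in FoxK2 KD cells 1 rose and 2 fell. Mrtfa was the one that rose in both (0.40 and 0.53). Of 12 kinases and ubiquitin ligases that act on FOS, JUN or MYC proteins, Mapk3, which encodes ERK1, fell in Control (-0.73) and DKD cells (-0.44) and with FoxK2 KD (-0.46), and over the 4 genotypes 0, 0, 1 and 0 rose and 1, 3, 1 and 1 fell. Among 12 other KLF and SP factors 0, 0, 1 and 0 rose and 4, 6, 4 and 4 fell in the same order of genotypes. Klf11 fell in each of them (-0.81, -0.97, -0.75 and -0.57). Klf15, a starvation-induced factor of gluconeogenic genes, fell in Control and DKD cells (-1.25 in each, at most 33 counts in any library). Mean Klf15 also went from 6.32 to 3.88 CPM in FoxK1 KD and from 4.55 to 2.89 CPM in FoxK2 KD cells.

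Of 9 genes of the MYC and MAX network tested, 0 rose in any genotype and 4, 3, 3 and 2 fell. The MYC antagonists Mxi1 (-0.85), Mxd4 (-0.63) and Mnt (-0.57) fell in Control cells, and Mxd4 fell in all 4 genotypes (-0.39 with FoxK1 KD, -0.30 with FoxK2 KD and -0.37 with DKD). Of 20 textbook MYC targets, which were all tested, 12 rose and 2 fell in Control cells, where Myc itself fell and 12.4% of all genes rose and 13.1% fell. Their median log2 fold change was 0.32, beside -0.011 over all genes. Srm, the spermidine synthase gene, rose by 0.82 and Cad, of pyrimidine synthesis, by 0.76, whereas Npm1 fell by 0.96 on the log2 scale. With FoxK1 KD, FoxK2 KD and DKD, 13, 9 and 8 of the 20 rose and 2, 2 and 1 fell, beside 16.2%, 14.4% and 8.31% of all genes that rose and 15.4%, 13.7% and 7.99% that fell. Of 9 AP-1 targets tested, 5 rose and 0 fell in Control cells, with a median of 0.54. The rises were led by Mmp13 (1.33, at most 15 counts in any library), a collagenase, Vegfa (0.82) and Hmox1 (0.64). With FoxK1 KD, FoxK2 KD and DKD, 4, 5 and 4 rose and 0, 1 and 0 fell, and Vegfa rose in each (1.57, 1.30 and 1.41). In FoxK1 KD basal cells, in which Fosl1 and Jund were lower, Vegfa was lower (-0.97) and Ccnd1, which encodes cyclin D1, was higher (0.68), for counts of 1 higher and 1 lower of the 9 AP-1 targets. Of the 20 MYC targets 1 was higher and 5 were lower there, with Ldha at -0.67 and Srm at -0.57. Over all genes tested, 3.39% were higher and 4.71% lower in FoxK1 KD against Control at basal.

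**Figure D5:**
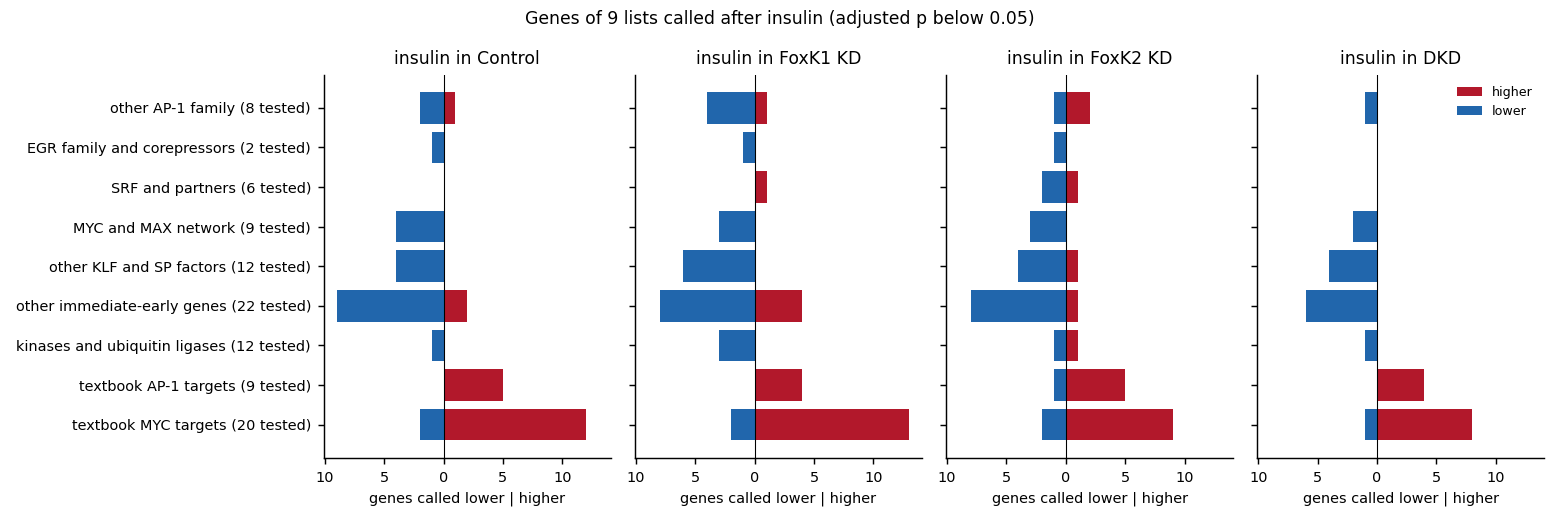
Number of genes called higher (red, to the right) and lower (blue, to the left) with insulin in each genotype, by list, with the number tested in the label of each list. The immediate-early list extends further to the left than to the right in all 4 genotypes (9 against 2 in Control), and the MYC target and AP-1 target lists extend further to the right.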

How the data were processed

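RNA-seq of poly(A) RNA was measured in 30 samples of 8 groups. The authors deposited raw read counts per gene, 1 table per sample, with no normalization. Per the submitters' processing notes CASAVA 1.8, STAR 2.4.2a, featureCounts and GRCm38.p4 were used; the annotation release, the strand setting and the handling of multiply mapped reads are not given in the sources used here, so reads of overlapping genes cannot be assigned by strand. Samples were grouped by their labels, and 0 columns of samples were left unused. Of 49089 identifiers, 48435 were found in GENCODE M21, from which symbols, exon lengths and coordinates were taken. Over 42 replicate pairs the chi-square statistic was at least 1.75 times its degrees of freedom, so none was treated as a copy. The largest ratios, 17.84, 15.73 and 22.08, were those of Control basal replicate 1 with replicates 2, 3 and 4. The next largest was 6.407, so this library was the least like its replicates.

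Genes were filtered by filterByExpr on the 8 groups. Counts of 11368 genes were normalized by TMM and fitted in 1 model of 8 groups with no covariate (R 4.3.3, edgeR 4.0.16, glmQLFit and glmQLFTest), with Benjamini-Hochberg adjustment within each of 17 contrasts. Standard errors were derived from the F statistic, as the size of the log2 fold change over the root of F, and 95% intervals from them. The log2-CPM used for correlations had a prior count of 2. Scripts were tested on simulated data. Alternatives were DESeq2 1.42.0, limma-voom 3.58.1, other filters, only the compared groups, a replicate block, a per-sample trend on GC content and length, the study's thresholds (0.25, with 1.5-fold for insulin effects) and leaving out each library. Same-numbered samples did not deviate together (mean correlation -0.0134 over 99 pairs, 0.00434 over 294 others), so numbers were not taken to pair samples. The factors, gene lists and tests were chosen with earlier results of these data known. Named genes were the 10 factors, Foxk1 and Foxk2, at most the 3 called genes with the largest change per list and contrast, the 3 genes most like each factor, and cell type markers. Promoters were read from RefSeq's table (GRCm38.p6) and searched on both strands for TGACGTCA, TGACTCA, the CArG box, CACGTG, GCGGGGGCG and GTAAACA.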

Additional observations from a re-analysis of the deposited data

Results flagged for a closer look

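In 54 groups of 4 samples (9 factors in 6 groups), 4 had a sample far from the other 3, where chance gives about 1 in 20. Fosl1 in Control basal replicate 3 was 5.95 CPM, with the others at 10.9 to 11.8 CPM. Without that sample the Control insulin effect was 0.81 and the FoxK1 KD basal difference -1.20, both called. Jund in FoxK1 KD insulin replicate 2 was 17.2 CPM, with the others at 15.1 to 15.2 CPM. Egr1 in FoxK2 KD basal replicate 4 was 25.3 CPM, with the others at 23.5 to 23.8 CPM. Klf10 in FoxK2 KD basal replicate 1 was 89.5 CPM, with the others at 63.1 to 65.2 CPM, and Klf10 was called in no comparison.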

How the results depend on the processing

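Counts of factors called are given over each family of comparisons. Insulin raised 3 and lowered 11 of 36, and 3 to 4 and 7 to 12 under the alternatives, with 7 lower under the study's thresholds. Lower at basal in a knockdown were 4 of 27, and 9 under the study's thresholds, 1 with only the compared groups and 7 after the GC content and length trend was taken out. Lower with insulin in a knockdown were 0 of 27, and 3 under the study's thresholds, 1 by DESeq2, 1 without the filter, 2 under the GC content and length trend and 3 under that trend with the replicate block. Higher in DKD than in a single knockdown were 2 of 36, and 5 under the study's thresholds, 4 without the filter, 4 with only the compared groups, and 0 or, with the block, 1 under that trend. DESeq2 and the replicate block each added Egr1, higher in DKD than in FoxK1 KD cells with insulin. Lower were 1, and 4 under the study's thresholds, 2 by limma-voom, 3 without the filter, 2 with at least 10 counts in every sample, 4 with only the compared groups, 2 with the replicate block and 3 under the trend with or without the block. Leaving out 1 library gave 0 to 2 higher and 0 to 2 lower in DKD against single knockdowns. One value reversed: Junb in DKD minus FoxK1 KD at basal was 0.09, and -0.33 under the GC content and length trend (adjusted p = 0.0185) and with the block (-0.33, 0.0225). The cause was not tested. The replicate block changed no call but Egr1 in DKD against both single knockdowns. Numbers did not pair the samples: 3 of 30 samples correlated best with their own number. No setting moved the median of all genes by more than 0.026 in any comparison. Fos, at 1 to 8 counts a library, was tested in the fit without the filter alone and called in none of the 17 comparisons.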
